A study of Mus musculus and Rattus norvegicus with 24 samples.

Results

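Protocadherins are cell adhesion proteins of the cadherin superfamily, and their genes were followed here through the first hours of a stroke model in mouse and rat brain. The members were the array features (transcript clusters, each a set of probes for one gene or a group of overlapping genes) whose gene symbol on the array platform, or every one of several symbols, begins with Pcdh. There were 71 of 78030 transcript clusters in all, 38 of 41345 in the mouse table and 33 of 36685 in the rat table. The mouse members were 1 alpha, 22 beta, 2 gamma and 13 non-clustered features, and the rat members 1 alpha, 20 beta, 1 gamma and 11 non-clustered features. The mouse set of non-clustered features covered 12 symbols, since Pcdh15 had 2 features. A pair of mouse features that join Pcdh10 with 1700027H10Rik and Pcdhga10 with Gm19774 fell outside the rule.

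The samples came from 24 animals, 3 in each of 8 groups, with 1 array per animal. Adult male C57 Black 6 mice (8 to 10 weeks old) and adult male Sprague-Dawley rats (8 to 12 weeks old) received either a lasting block of the middle cerebral artery (pMCAO) by a filament left in place, or a sham operation without occlusion, and tissue was taken at 2 h or 6 h. The right artery was occluded in mice and the left in rats. Penumbra, the threatened tissue around the core of an infarct, was sampled as a 3 by 3 mm piece, and sham tissue came from a matching region on the operated side. The groups compared were pMCAO against sham within each time and species, all of unmodified animals under isoflurane. All values are log2 intensities, so a difference of -1 would be a halving.

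Protocadherins fall into sets by gene structure. Each alpha and gamma protocadherin joins its own variable first exon to constant exons shared by the whole cluster, whereas each beta gene is a single coding exon with no shared constant part. Neurons switch on different combinations of these clustered genes through promoter choice aided by CTCF and cohesin, and the proteins bind their own kind across cells, which lets neurites of the same neuron recognise and avoid one another. The non-clustered protocadherins lie apart in the genome, have their own promoters and act in synapse formation, synapse removal and cell sorting. The mouse alpha feature combined 9 symbols and one of the mouse gamma features also 9, while the rat alpha and gamma features combined 15 and 13, so single alpha and most single gamma genes could not be told apart. A rat beta feature also joined 2 symbols, Pcdhb10 and Pcdhb9, and Pcdhb9 had a further feature of its own. Beta genes are close copies of one another and their probes can detect each other's RNA, so beta features are not independent measurements.

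The promoters of the 3 mouse non-clustered genes that passed the test at 6 h are shown because these genes moved in opposite directions, Pcdh8 up and Pcdh10 and Pcdh9 down. Each runs from 250 bases before to 50 bases after the gene's start, read 5′ to 3′ on the gene's strand, from RefSeq on GRCm38.p6. The Pcdh8 window is chr14:79771263-79771562 on the minus strand, that of Pcdh10 chr3:45378148-45378447 on the plus strand and that of Pcdh9 chr14:93890630-93890929 on the minus strand. Capitals mark the matches to 3 motifs, each searched on both strands: the half-site of a cyclic AMP response element is TGACG, the AP-1 site is TGANTCA, and the TATA box is TATAAA. No matches overlapped here.
Pcdh8: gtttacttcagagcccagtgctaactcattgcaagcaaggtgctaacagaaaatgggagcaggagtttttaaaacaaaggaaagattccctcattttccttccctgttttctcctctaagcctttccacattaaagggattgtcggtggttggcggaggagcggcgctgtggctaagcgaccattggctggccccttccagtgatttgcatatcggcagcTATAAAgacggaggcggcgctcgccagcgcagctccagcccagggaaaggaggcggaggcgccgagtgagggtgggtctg
Pcdh10: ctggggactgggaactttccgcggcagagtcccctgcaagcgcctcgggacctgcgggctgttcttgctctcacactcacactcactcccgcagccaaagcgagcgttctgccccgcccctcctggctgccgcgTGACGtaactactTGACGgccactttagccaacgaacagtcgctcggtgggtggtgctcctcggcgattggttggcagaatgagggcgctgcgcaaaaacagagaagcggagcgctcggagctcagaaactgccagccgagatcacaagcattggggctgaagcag
Pcdh9: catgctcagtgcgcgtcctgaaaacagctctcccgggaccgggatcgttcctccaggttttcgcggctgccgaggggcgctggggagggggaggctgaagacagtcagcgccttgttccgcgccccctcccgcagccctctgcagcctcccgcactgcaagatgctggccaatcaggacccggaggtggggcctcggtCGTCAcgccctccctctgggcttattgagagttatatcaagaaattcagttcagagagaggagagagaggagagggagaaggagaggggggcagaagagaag
TATAAA stood 30 bases before the start in Pcdh8 (position -30), TGACG stood at -116 and -103 in Pcdh10, and its reverse complement CGTCA at -52 in Pcdh9. Over 32851 mouse promoter windows of 300 bases, 20.81% held TGACG, 7.808% TGANTCA and 13.62% TATAAA. Of the 12 non-clustered mouse symbols, 9 had a window in the table. TGACG was in 2 of these, TATAAA in 2 (Pcdh8 and, at -33, Pcdh15) and TGANTCA in 0. These matches describe letters in the windows and were not tested as binding sites.

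Array medians lay within 6.03 to 6.06 and 5.92 to 5.96 in mice at 2 h and 6 h, and within 6.67 to 6.75 and 5.82 to 5.87 in rats, so levels are compared only within a time. The root mean square deviation of an array from its group mean was 0.14 to 0.21 on the log2 scale; at 2 h the second rat pMCAO array had the largest such value of that time, 0.20, and leaving it out still gave 0 protocadherin calls. The neuronal marker list (8 genes, among them Rbfox3 and Snap25) averaged 10.46 to 10.83 in mice and 10.91 to 11.71 in rats, so the tissue carried neuronal RNA on every array. Striatal projection neuron markers (such as Drd1, Drd2 and Tac1) differed strongly between mouse sham animals at 6 h, at 8.70, 7.89 and 8.93 in replicates 1 to 3.

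Beta protocadherins of the mouse were lower in the penumbra 6 h after pMCAO than after sham surgery. Of 22 beta genes 14 fell, 0 rose and 8 did not pass the threshold (adjusted p under 0.05, limma with Benjamini-Hochberg adjustment over 25335 features); 3.64% of all features tested fell and 3.11% rose in this comparison. All 22 log2 differences were negative, from -0.57 to -0.13, with a median of -0.39, against a median of -0.01 over all features tested, of which 52.5% were negative. In 19 of 22 beta genes, with Pcdhb2, Pcdhb7 and Pcdhb9 as the exceptions, every pMCAO animal lay below every sham animal, which held for 14% of all features.

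Averaged over the 22 genes, the beta level was 6.09, 6.05 and 6.02 in the pMCAO mice and 6.34, 6.47 and 6.45 in the sham mice. The means were 6.06 ± 0.036 (SD, n = 3) and 6.42 ± 0.071 (SD, n = 3). The groups did not overlap, and the difference of -0.37 corresponds to a change of -22.5% in the geometric mean.

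**Figure D1:**
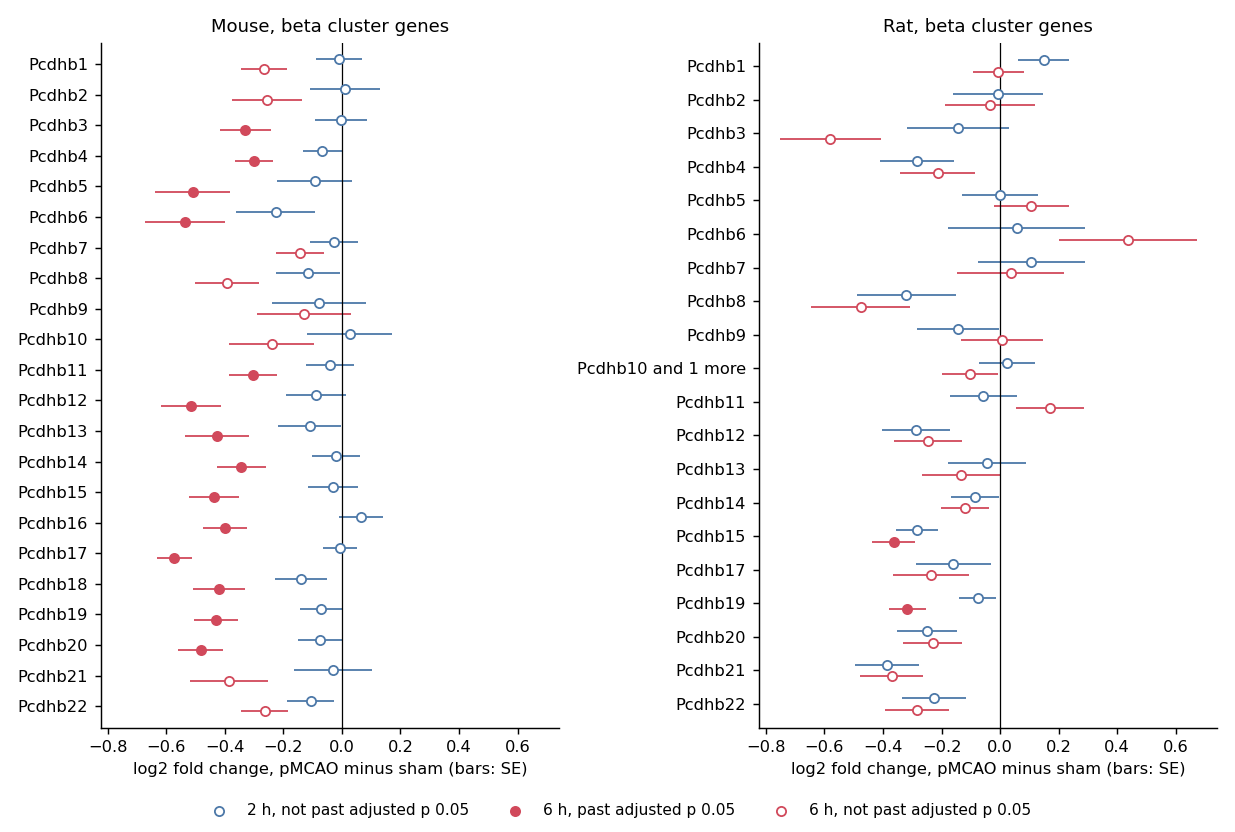
Log2 difference between pMCAO and sham (x axis) with its standard error for each beta protocadherin (y axis), at 2 h and 6 h in mouse and rat; filled points passed adjusted p 0.05 and open points did not. In the mouse all 22 points lie below 0 at 6 h with a median of -0.39, while at 2 h they scatter near 0 with a median of -0.05.

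Pcdhb17 had the smallest p-value among the beta genes. Its level was 7.23, 7.32 and 7.29 in pMCAO mice against 7.89, 7.81 and 7.86 in sham mice at 6 h. The groups were far apart relative to their spread, with a fall of 0.57 on the log2 scale (SE 0.06, adjusted p = 0.000438, limma), a change of -32.8%. Pcdhb20 read 7.68, 7.55 and 7.61 after pMCAO against 8.07, 8.16 and 8.06 after sham, again without overlap, and fell by 0.48 (SE 0.08, adjusted p = 0.00593, limma). Pcdhb19 read 6.52, 6.59 and 6.46 against 6.86, 7.10 and 6.90 and fell by 0.43 (adjusted p = 0.0083, limma). For Pcdhb16 the values were 6.65, 6.53 and 6.46 against 6.99, 7.0 and 6.85, a fall of 0.40 (adjusted p = 0.0119, limma). In each of these genes all pMCAO animals lay below all sham animals. The proteins of these genes are all of the beta type, adhesion receptors whose short inner parts lack the constant domain of the alpha and gamma proteins.

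The 14 beta genes that passed had log2 differences from -0.57 to -0.30. Beside the 4 genes above they were Pcdhb3, Pcdhb4, Pcdhb5, Pcdhb6, Pcdhb11, Pcdhb12, Pcdhb13, Pcdhb14, Pcdhb15 and Pcdhb18. The 8 that did not pass (Pcdhb1, Pcdhb2, Pcdhb7, Pcdhb8, Pcdhb9, Pcdhb10, Pcdhb21 and Pcdhb22) spanned -0.39 to -0.13, with adjusted p from 0.0537 to 0.682 (limma). Pcdhb9 was the least negative beta gene, with pMCAO values of 4.62, 4.08 and 4.13 and sham values of 4.26, 4.60 and 4.36, which overlapped.

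The 17 mouse protocadherin calls at 6 h (16 lower, 1 higher; 6.75% of all features were called) became 11, 11 and 8 without pMCAO replicate 1, 2 or 3, and 8 and 8 without sham replicate 2 or 3. Of these calls 7 were made whichever of the 6 arrays of that time was left out (Pcdh8, Pcdh10, Pcdhb15, Pcdhb16, Pcdhb17, Pcdhb19 and Pcdhb20), and the median over the beta genes stayed between -0.43 and -0.34. With the 6 arrays of the time fitted alone 3 calls were made (Pcdhb12, Pcdhb17 and Pcdhb20).

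Marker lists of cell types that the tissue could hold moved beside these values. Neuronal markers averaged 10.46 to 10.52 in the pMCAO mice and 10.56 to 10.62 in the sham mice at 6 h, with 1 of 8 lower. Cortical excitatory markers averaged 8.92 to 8.97 against 9.07 to 9.10, with 2 of 7 lower (Neurod6 at -0.73 and Rorb at -0.57), while 4 of the others (Neurod2, Fezf2, Cux2 and Slc17a7) had differences from 0.003 to 0.20 and the list median was 0.003. Microglial markers averaged 7.14 to 7.28 against 7.37 to 7.45, with 2 of 6 lower. Other lists were higher: oligodendrocyte markers averaged 8.94 to 9.0 against 8.57 to 8.89, with 0 of 6 called and a median of 0.21, and neutrophil markers 4.65 to 4.93 against 4.47 to 4.48, with 1 of 7 higher (Retnlg). Retnlg differed by 1.19, S100a8, S100a9, Ly6g and Mmp8 by 0.09 to 0.39, and Camp and Ngp by -0.11 and -0.14. Astrocyte markers overlapped, at 8.72 to 8.90 against 8.63 to 8.84, with 1 of 8 higher (Gfap, 0.89) and a median of 0.02. Aqp4, Aldh1l1, Slc1a3 and S100b differed by 0.02 to 0.17, and Slc1a2, Gja1 and Fgfr3 by -0.20, -0.20 and -0.26. Endothelial markers overlapped with 1 of 7 higher and 1 lower. Oligodendrocyte precursor, mural cell, meningeal fibroblast and choroid plexus markers also overlapped, with 0 called. Striatal markers averaged 7.65 to 7.80 against 7.89 to 8.93, with 2 of 7 lower. The sham mice, at striatal levels of 8.70, 7.89 and 8.93, had beta means of 6.34, 6.47 and 6.45. With the striatal level of each array as a covariate, a choice made after seeing the data, 3 protocadherin calls were made in mice at 6 h (Pcdhb5, Pcdhb17 and Pcdhb19). The beta median was then -0.36, with 22 of 22 negative, while the median standard error over the beta genes went from 0.087 to 0.13 and the share of all features called was 0.308%. Pcdhb20, for example, kept a difference of -0.48 at an adjusted p of 0.137 (limma), and the differences of Pcdhb5 and Pcdhb6 went from -0.51 to -0.87 and from -0.54 to -0.32. The striatal levels of pMCAO and sham mice did not overlap at 6 h, so this fit could not cleanly separate striatal level from treatment. The part of any of these cell types in the result was not tested. In bulk tissue fewer cells of a type and less RNA per cell cannot be told apart.

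**Figure D2:**
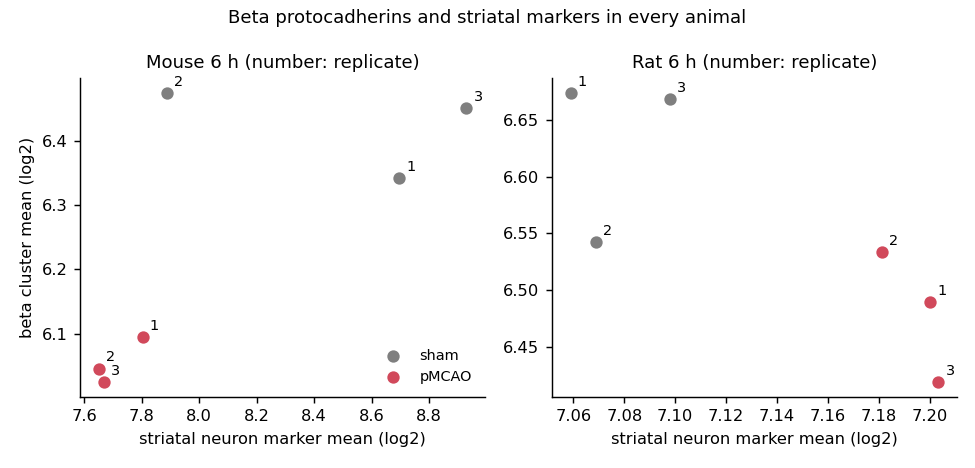
Mean log2 level of the striatal projection neuron markers (x axis) against the mean log2 level of the beta protocadherins (y axis) at 6 h, 1 point per animal, pMCAO and sham in different colours, mouse and rat in separate panels. In the mouse the pMCAO animals lie at striatal levels of 7.65 to 7.80 and beta means of 6.02 to 6.09, and the sham animals at 7.89 to 8.93 and 6.34 to 6.47.

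The mouse alpha and gamma features gave no call at 6 h. The alpha feature, which starts with Pcdhac2 among 9 symbols, read 6.70, 6.58 and 6.65 after pMCAO and 6.61, 6.76 and 6.73 after sham, a difference of -0.06 (SE 0.09, adjusted p = 0.758, limma). The joint gamma feature, led by Pcdhga11, read 6.08, 6.35 and 6.26 against 6.45, 6.26 and 6.42, a difference of -0.15 (adjusted p = 0.387, limma). Pcdhga10, the gamma gene with a feature of its own, read 7.50, 7.46 and 7.72 against 7.78, 7.61 and 7.67, a difference of -0.13 (adjusted p = 0.357, limma). The groups overlapped in all 3 features, and 0 of the 3 had an unadjusted p under 0.05, against 22.7% of all features. Whether the beta differences are larger than those of alpha and gamma was not tested, since alpha and gamma rest on 3 features that mix many transcripts.

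**Figure D3:**
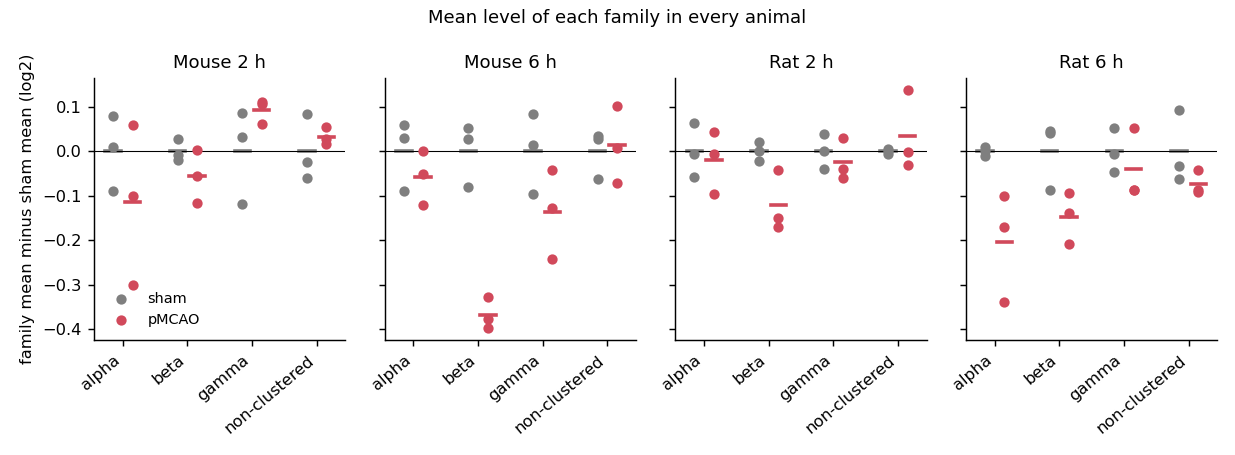
Mean log2 level of each protocadherin set in each animal minus the mean of the sham animals of that set (y axis), by set (x axis), with 1 panel per species and time; points are animals (3 per group) and short lines group means. The mouse beta set at 6 h is the one whose pMCAO mean lies farthest from sham, at -0.37, and its 3 pMCAO animals lie below its 3 sham animals.

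Non-clustered protocadherins of the mouse moved in both directions at 6 h. Of 13 features 1 rose (Pcdh8), 2 fell (Pcdh10 and Pcdh9) and 10 did not pass, beside 3.11% of all features that rose and 3.64% that fell. The median difference was -0.06, against -0.01 over all features. Averaged over all 13, pMCAO mice stood at 7.67 ± 0.087 (SD, n = 3) and sham mice at 7.66 ± 0.054 (SD, n = 3).

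Pcdh8, also called arcadlin, is an activity-induced protocadherin that draws N-cadherin (Cdh2) off the synaptic surface through the kinase Taok2. It had the largest rise of any mouse protocadherin at 6 h, from 6.4, 6.61 and 6.4 in sham mice to 7.02, 7.67 and 7.84 in pMCAO mice. Every pMCAO animal lay above every sham animal although the pMCAO animals differed among themselves by far more than the sham animals did. The log2 difference was 1.04 (SE 0.17, adjusted p = 0.00711, limma), a fold of 2.06. At 2 h Pcdh8 read 7.07, 6.93 and 6.84 after pMCAO and 6.54, 6.64 and 6.82 after sham, a difference of 0.28 without overlap that did not pass (adjusted p = 0.764, limma).

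Pcdh10 takes part in the removal of excitatory synapses, where Mef2 factors induce it and it brings Mdm2-tagged Dlg4 (PSD-95) to the proteasome. In mice at 6 h it read 9.33, 9.51 and 9.41 after pMCAO and 9.74, 9.73 and 9.89 after sham. The groups did not overlap and the fall was 0.37 (SE 0.07, adjusted p = 0.0105, limma). In rats at 6 h it read 9.48, 9.35 and 9.45 against 9.78, 9.75 and 9.69, also without overlap, a fall of 0.31 (SE 0.07, adjusted p = 0.0173, limma). It was the only non-clustered protocadherin that passed in both species at 6 h. The mouse and rat differences of Pcdh10 differed by -0.06 (SE 0.09), less than their error. At 2 h its differences were -0.04 in mice and -0.003 in rats. The rat call was lost without sham replicate 1 or 2, with adjusted p from 0.0605 to 0.0707 (limma).

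Pcdh9, another synaptic protocadherin of cortical neurons, read 9.36, 9.45 and 9.44 in pMCAO mice and 9.59, 9.65 and 9.78 in sham mice at 6 h. All pMCAO values lay below all sham values, and the fall was 0.26 (SE 0.06, adjusted p = 0.0374, limma). The call was lost without any one of pMCAO replicates 1, 2 and 3 or sham replicates 2 and 3, with adjusted p from 0.0645 to 0.128 (limma). In the rat at 6 h the difference of Pcdh9 was -0.06 with overlapping groups (adjusted p = 0.671, limma).

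**Figure D4:**
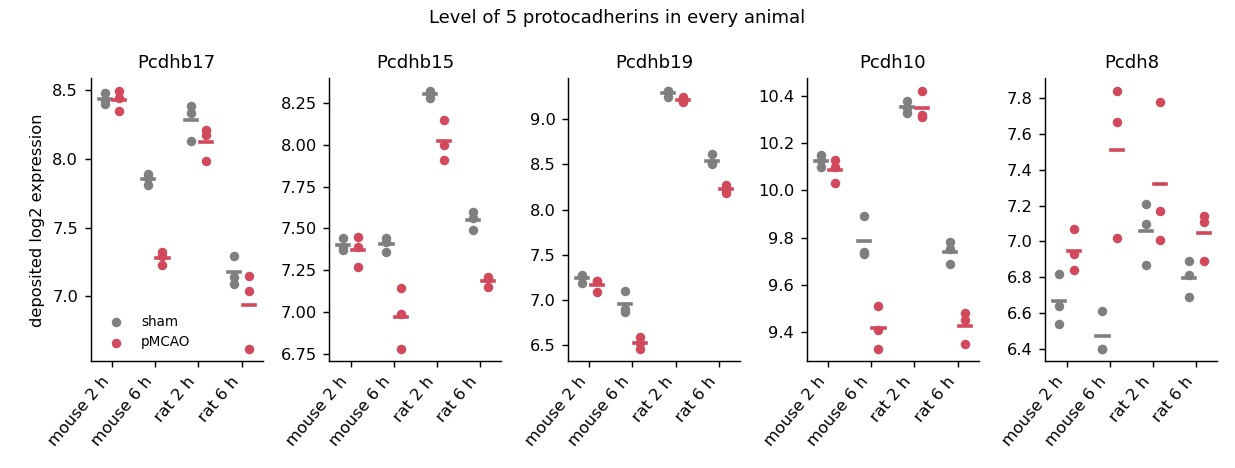
Log2 level (y axis) of Pcdhb17, Pcdhb15, Pcdhb19, Pcdh10 and Pcdh8 in each animal (points, 3 per group; short lines are means), sham and pMCAO at 2 h and 6 h in mouse and rat (x axis), each gene on its own scale and comparable only within a species and time. In mice at 6 h Pcdh8 stands at 7.02 to 7.84 after pMCAO against 6.4 to 6.61 after sham, while Pcdh10 stands at 9.33 to 9.51 against 9.73 to 9.89.

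The other non-clustered genes did not pass in mice at 6 h. Pcdh20 had the most negative difference, -0.43, with pMCAO values of 6.72, 6.78 and 6.97 below the sham values of 6.98, 7.42 and 7.37 (adjusted p = 0.102, limma). Pcdh1 had a difference of 0.34 with overlapping groups (adjusted p = 0.0717, limma). Without pMCAO replicate 2 its adjusted p was 0.0285 (limma). Pcdh19, an X-linked gene mutated in an epilepsy of girls, differed by -0.21 with no overlap (adjusted p = 0.249, limma). Pcdh12, an adhesion protein of the endothelium, differed by 0.23 and also did not overlap (adjusted p = 0.495, limma). All Pcdh12 values, 5.34 to 5.66, lay below the mouse array medians of that time. Pcdh7, Pcdh11x, Pcdh17 and Pcdh18 differed by -0.05, -0.08, -0.06 and -0.12. The features of Pcdh15, a component of the tip link of hair cells, differed by 0.20 and -0.06, so they disagreed in sign within overlapping groups.

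**Figure D5:**
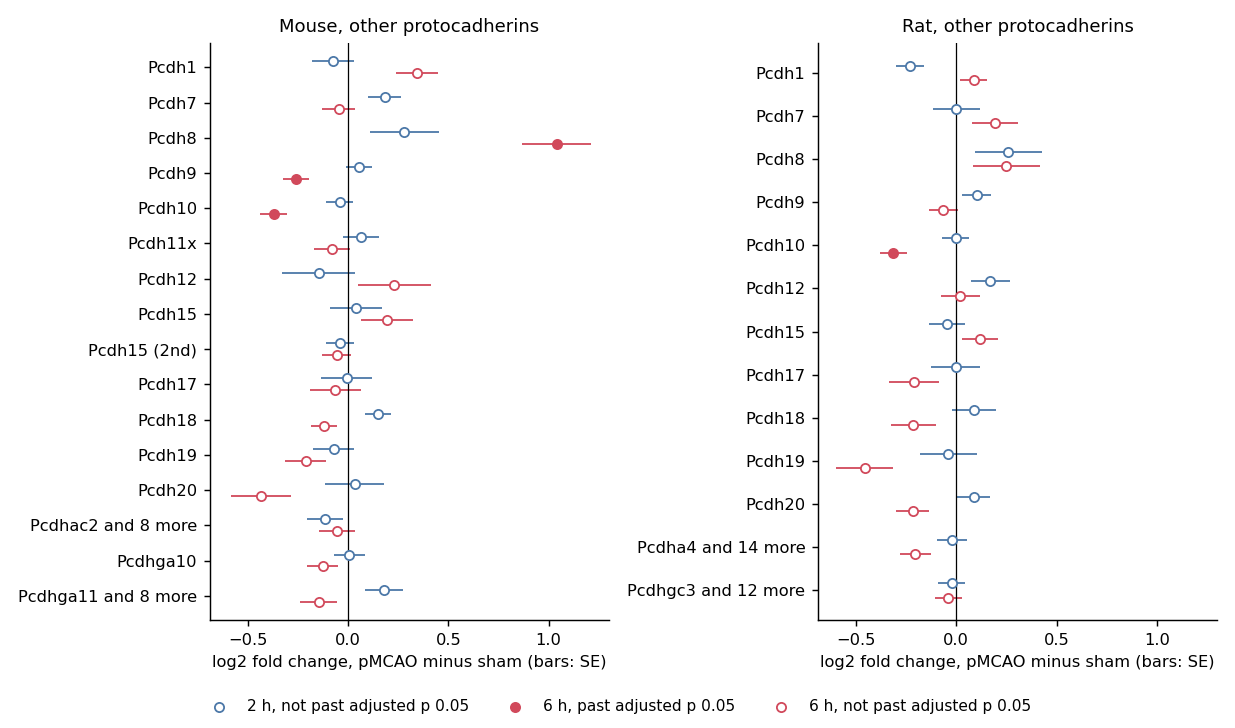
Log2 difference between pMCAO and sham (x axis) with its standard error for the alpha, gamma and non-clustered protocadherins (y axis) at 2 h and 6 h in mouse and rat; filled points passed adjusted p 0.05, and Pcdh15 (2nd) is the other mouse Pcdh15 feature. Pcdh8 in the mouse at 6 h, at 1.04, is the farthest point to the right, and Pcdh10 is filled at 6 h in both species, at -0.37 and -0.31.

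At 2 h after pMCAO no mouse protocadherin passed the test. The count was 0 of 38 by limma, with 2 at an unadjusted p under 0.05 (Pcdh18 and Pcdh7), reached by 7.62% of all features; 0.379% of all features were called. The beta genes had a median difference of -0.05, from -0.23 (Pcdhb6) to 0.07 (Pcdhb16), with 19 of 22 negative and 3 of 22 (Pcdhb4, Pcdhb6 and Pcdhb22) without overlap, against 8.12% of all features lower without overlap. Their mean was 6.66 ± 0.060 after pMCAO and 6.72 ± 0.024 after sham (SD, n = 3 each), and the groups overlapped. Every pMCAO animal lay above every sham animal in 4 members (Pcdh7, Pcdh8, Pcdh18 and the joint gamma feature), against 6.3% of all features; Pcdh7 and Pcdh18 differed by 0.18 and 0.15 (adjusted p = 0.643 and 0.628, limma). The alpha feature differed by -0.11 and the gamma features by 0.18 (joint) and 0.01 (Pcdhga10). The other non-clustered features ran from -0.15 (Pcdh12) to 0.06 (Pcdh11x), apart from Pcdh8 above.

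The change of the mouse effect from 2 h to 6 h was tested in the same fit. All 22 beta genes had a more negative effect at 6 h than at 2 h, with a median change of -0.31, against -0.01 over all features. By limma 1 of 22 passed, Pcdhb17, whose effect went from -0.01 at 2 h to -0.57 at 6 h, a change of -0.57 (SE 0.08, adjusted p = 0.0415). An unadjusted p under 0.05 was reached by 13 of the 22 and by 13.6% of all features. Over all features 0.158% were called, 0.0671% more negative and 0.0908% more positive at 6 h. The Pcdhb17 call was lost when any of 11 of the 12 arrays was left out, all but pMCAO replicate 1 at 6 h, with adjusted p from 0.0424 to 0.126 over the 12 (limma). Neither Pcdh8 nor Pcdh10 nor any other non-clustered gene passed, and 6 of the 13 non-clustered features had an unadjusted p under 0.05.

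In rats 6 h after pMCAO, few beta genes passed the test. Of 20 beta features 2 fell (Pcdhb15 and Pcdhb19), 0 rose and 18 did not pass; 3.44% of all 19086 features tested fell and 2.79% rose. The median difference was -0.17 against -0.02 over all features, with 15 negative and 5 positive. In 7 genes the pMCAO animals lay wholly below the sham animals, in 1 (Pcdhb6) wholly above, against 14.5% and 9.7% of all features. The beta mean was 6.49, 6.53 and 6.42 in the pMCAO rats and 6.67, 6.54 and 6.67 in the sham rats. The groups were separated only narrowly, by the second animal of each, and the means were 6.48 ± 0.058 and 6.63 ± 0.075 (SD, n = 3 each), a difference of -0.15. Without sham replicate 3 the median over the beta genes was -0.10.

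Pcdhb15 read 7.21, 7.20 and 7.15 in pMCAO rats against 7.60, 7.56 and 7.49 in sham rats, a fall of 0.36 (SE 0.07, adjusted p = 0.0135, limma). Pcdhb19 read 8.27, 8.23 and 8.18 against 8.61, 8.5 and 8.52, a fall of 0.32 (SE 0.06, adjusted p = 0.0135, limma). Neither gene's groups overlapped, and both genes also fell in the mouse, where Pcdhb15 read 7.14, 6.99 and 6.78 against 7.44, 7.42 and 7.36. Without rat sham replicate 1 none of the 3 rat calls remained, with adjusted p of 0.0576 for Pcdhb15 and 0.061 for Pcdhb19 (limma).

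The most negative rat beta gene was Pcdhb3, at -0.58, with 3.92, 3.80 and 3.32 after pMCAO below 4.40, 3.99 and 4.39 after sham (adjusted p = 0.0701, limma). All these Pcdhb3 values lay below the rat array medians of that time (5.82 to 5.87), so its difference rests on low signal. The most positive was Pcdhb6, at 0.44, with 6.65, 6.55 and 6.33 above 6.01, 6.07 and 6.14 (adjusted p = 0.31, limma). The rat beta genes thus spread on both sides of 0, with the 2 extremes each free of overlap and neither past the threshold.

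Of 11 rat non-clustered features at 6 h 1 fell (Pcdh10), 0 rose and 10 did not pass, beside 3.44% of all features that fell and 2.79% that rose. The median was -0.06, against -0.02 over all features. Pcdh19 read 7.25, 7.03 and 6.87 against 7.69, 7.54 and 7.29, a difference of -0.46 without overlap (adjusted p = 0.079, limma). Pcdh8 read 7.14, 6.89 and 7.11 against 6.89, 6.81 and 6.69, a difference of 0.25 with a tie between the groups (adjusted p = 0.427, limma). Pcdh17, a presynaptic protocadherin of corticobasal circuits, differed by -0.21, as did Pcdh18, and Pcdh20 by -0.22. Pcdh7 differed by 0.19, Pcdh15 by 0.12, Pcdh1 by 0.09 and Pcdh12 by 0.02. The alpha feature, led by Pcdha4, read 5.98, 6.22 and 6.15 below 6.31, 6.33 and 6.32, a difference of -0.20 that did not pass (adjusted p = 0.141, limma). The gamma feature, led by Pcdhgc3, differed by -0.04 with overlapping groups.

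Rat marker lists at 6 h were as follows. Astrocyte, oligodendrocyte, oligodendrocyte precursor, mural cell and meningeal fibroblast markers overlapped between the groups, with 0 called. Choroid plexus markers averaged 5.09 to 5.31 after pMCAO and 4.74 to 5.02 after sham, with 0 of 5 called. Striatal markers averaged 7.18 to 7.20 after pMCAO and 7.06 to 7.10 after sham, with 0 of 9 called, and neuronal markers 10.91 to 10.98 against 10.95 to 10.99, with 0 of 8 called. Cortical excitatory markers averaged 9.36 to 9.48 against 9.57 to 9.67, with 1 of 6 lower, and microglial markers 7.18 to 7.41 against 7.50 to 7.56, with 2 of 6 lower. Neutrophil markers were higher, at 4.80 to 5.13 against 4.29 to 4.48, with 2 of 6 called (S100a9 and Mmp8). Endothelial markers averaged 6.83 to 7.21 against 7.20 to 7.51, which overlapped narrowly, with 1 of 5 lower (Slco1a4, -1.90). The endothelial list median was -0.27, so the lower average leans heavily on that 1 gene. With the striatal level as a covariate 1 rat call was made (Pcdhb19), where 3.66% of all features were called. The differences were then -0.34 for Pcdhb15 (adjusted p = 0.0515, limma) and -0.30 for Pcdh10 (adjusted p = 0.0606, limma). Striatal levels of pMCAO and sham rats did not overlap, so this fit could not cleanly separate striatal level from treatment. The part of these cell types in the rat values was not tested.

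At 2 h 0 of 33 rat protocadherins passed by limma, with 6 at an unadjusted p under 0.05, 5 of them beta genes, against 6.93% of all features; 0.0629% of all features were called, 0.0314% higher and 0.0314% lower. The beta median was -0.12, with 15 of 20 negative, from -0.39 (Pcdhb21) to 0.15 (Pcdhb1). Pcdhb21 read 7.12, 7.33 and 7.53 below 7.74, 7.67 and 7.73 (adjusted p = 0.408, limma). The beta mean of the pMCAO rats, 7.41 to 7.53, lay below that of the sham rats, 7.56 to 7.60. Single members without overlap were 4 below sham and 2 above, against 7.48% and 5.48% of all features. Among non-clustered genes Pcdh1 was lowest at -0.23 and Pcdh8 highest at 0.26, and the median was 0. Pcdh12 and Pcdh9 stood above sham without overlap, by 0.17 and 0.10, and Pcdh7, Pcdh15, Pcdh17, Pcdh18, Pcdh19 and Pcdh20 overlapped with differences from -0.05 to 0.09. The alpha and gamma features both differed by -0.02. From 2 h to 6 h the rat beta effects had a median change of -0.05, and 0 of 33 protocadherins passed the test of that change, with 4 at an unadjusted p under 0.05, reached by 10.7% of all features; 0.204% of all features were called.

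The mouse and rat effects at 6 h were compared directly for 30 protocadherins with the same symbol. By the difference of the limma estimates over its standard error, adjusted over 14204 symbols, 0 of 30 passed, against 2.27% of all matched symbols. An unadjusted p under 0.05 was reached by 6 of the 30, a share that was not counted over all matched symbols. The beta effect was more negative in the mouse for 16 of 19 genes, with a median difference of -0.22, and had the same sign in 14 of 19. The farthest apart was Pcdhb6, at -0.54 in mice and 0.44 in rats, a difference of -0.97 (SE 0.27, adjusted p = 0.0656). For Pcdh8 the difference was 0.79 (SE 0.24, adjusted p = 0.0821). Of the 11 non-clustered genes 10 had the same sign in both species, Pcdh7 being the exception. How often all matched symbols showed such signs was not counted, so these sign counts cannot be read as particular to protocadherins. Beta genes were matched by symbol, which need not mean that they descend from the same ancestral gene.

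Genes that control protocadherin promoters or work with the proteins were counted from a list of 47. In mice at 6 h 1 of 44 measured rose and 5 fell, with a median of -0.11, beside 3.11% and 3.64% of all features. Rad21, a subunit of the cohesin ring that loops protocadherin enhancers to promoters, fell by 0.27 (SE 0.05, adjusted p = 0.0103, limma). Nlgn1, a postsynaptic adhesion protein that clustered protocadherins bind, fell by 0.31 (adjusted p = 0.0145, limma). Mdm2, the ubiquitin ligase of the Pcdh10 route, rose by 0.35 (adjusted p = 0.0193, limma), and Cdh2, the cadherin that Pcdh8 removes from the surface, fell by 0.25 (adjusted p = 0.0251, limma).

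In rats at 6 h 1 of 41 rose and 2 fell, with a median of -0.11, beside 2.79% and 3.44% of all features. Smc3, another cohesin subunit, fell by 0.49 (SE 0.06, adjusted p = 0.00143, limma), Cdh2 fell by 0.59 (SE 0.08, adjusted p = 0.00155, limma) and Rest, a repressor of neuronal genes, rose by 0.48 (adjusted p = 0.0186, limma). Cdh2 thus fell at 6 h in both species. At 2 h 0 of the list passed in either species by limma.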

How the data were processed

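RNA of 24 animals was hybridised to whole-transcript arrays, 12 per species. The authors deposited 1 table of log2 expression values per species, with oligo and limma named in the submitters' processing notes; no version or genome build is named there. That the scale is log2 was taken from the range of the values. Groups came from the sample titles, because 1 further label gives 2 h throughout. Gene symbols came from the platform annotation.

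For each species, a model with 1 mean per group was fitted with limma 3.58.1 (R 4.3.3) to the 12 arrays, leaving 8 residual degrees of freedom, with default empirical Bayes settings and no fold limit. The species were compared through the difference of their estimates over its standard error, with degrees of freedom by Satterthwaite's formula. Benjamini-Hochberg adjustment ran over every transcript cluster with at least 1 symbol, 25335 in mouse and 19086 in rat, with a threshold of 0.05. The number of arrays limits the precision, and an exact permutation of 3 against 3 animals cannot go below 0.1. The procedure was tested on simulated data. No block was used, because replicate numbers gave no clear sign of pairing (correlations of same-numbered deviations from -0.101 to 0.213). With 3 animals per group such correlations cannot exclude pairing, so a replicate block was run as an alternative.

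The members and the lists were chosen with earlier results of these data known. All non-clustered genes were named; of each other set, the members past the threshold in a contrast if 8 or fewer passed, otherwise the 4 with the smallest p per direction, plus the highest and lowest difference. Other members named were chosen after their values were seen. Up to 4 genes per contrast were named from the list of regulators and partners. Alternatives were another normalization, filter, variance model, adjustment universe, array set, block and covariate.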

Additional observations from a re-analysis of the deposited data

Results flagged for a closer look

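The mouse Pcdhb17 effect passed the test of a change between the times: it was -0.57 at 6 h and -0.01 at 2 h, a change of -0.57 (SE 0.08, adjusted p = 0.0415, limma). The sham and pMCAO animals overlapped at 2 h and did not at 6 h. The call was lost when any of 11 of the 12 arrays was left out. It was also lost with adjustment over all transcript clusters, the replicate block or the striatal covariate, and kept under the other normalizations, filters and variance models.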

How the results depend on the processing

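Mouse and rat counts at 2 h stayed at 0 under every alternative run. Against 17 calls in mice at 6 h, adjusting over all transcript clusters gave 10, array weights 11, the 6 arrays of the time alone 3 and the striatal covariate 3. Leaving out 1 array of that time gave 8 to 15. Quantile normalization and keeping clusters at or above the table median gave 20 each, and median centring and trended robust eBayes 19 each. Apart from the covariate fit, the share of all features called under each alternative is not given here. Against 3 in rats at 6 h, keeping clusters at or above the table median gave 5, trended robust eBayes 5, the 6 arrays alone 0, the covariate 1 and leaving out 1 array 0 to 4. For the changed effect in mice (1), all clusters gave 0, the median filter 2, trended robust eBayes 5, the covariate 0 and leaving out 1 array 0 to 2. For the species difference (0), the median filter and trended robust eBayes gave 2 each and leaving out 1 array 0 to 1. With the replicate block, mouse 6 h gave 9 calls, the changed effect 0 and the species difference 2; the animals share only a number.

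No called gene changed sign. Leaving out 1 array, the median changed sign for mouse non-clustered (-0.01 to 0.09) and rat alpha (-0.05 to 0.02) at 2 h. Median differences that moved were mouse gamma at 2 h, 0.0067 with 1 cluster per symbol; mouse alpha at 6 h, -0.19 with the covariate; rat non-clustered at 2 h, 0.073 with the covariate; and rat non-clustered at 6 h, -0.14 with the median filter. Leaving out 1 array gave rat beta medians of -0.18 to -0.083 at 2 h and -0.23 to -0.10 at 6 h, and rat non-clustered medians of -0.13 to -0.042 at 6 h. The cause was not tested. Smaller sample numbers are part of the 6-array and left-out fits. Of single-gene values 868 were the same, 101 no longer passed, 7 newly passed and 41 without a call moved. The number of arrays limits the precision.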

Other observations

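Genes that lie between or beside the clustered protocadherins were measured too. In mice at 6 h, Taf7 and Slc25a2, which lie between the beta and gamma clusters, differed by -0.03 and 0.13. Diaph1, beyond the gamma cluster, differed by -0.19 (adjusted p = 0.313, limma), and Zmat2 and Hars2 by -0.01 and -0.07. By limma 0 of these 5 passed, and 0 had an unadjusted p under 0.05, against 6.75% and 22.7% of all features. In rats at 6 h 0 of 5 passed, with 1 at an unadjusted p under 0.05 (Hars2, -0.21), against 6.22% and 21.8% of all features.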
